A study of Mus musculus with 6 samples.

Results

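The receptors described here are 10 co-inhibitory and costimulatory members of the immunoglobulin family, Cd28, Icos, Ctla4, Pdcd1, Btla, Tigit, Cd96, Cd226, Lag3 and Havcr2. They were chosen by name from the deposited table, in which they are 10 of 29199 genes, and all 10 were among the 18321 genes with enough counts to be tested. RNA was sequenced from regulatory T cells (Treg) that had been sorted from the spleen 3 weeks after a bone marrow graft. Of the 6 libraries, 3 came from Treg transferred together with wild-type (WT) conventional CD4+ T cells (Tconv) and 3 from Treg transferred together with HP1α KO Tconv, which lack a heterochromatin protein. The hosts of both groups were lethally irradiated C57BL/6J or CD45.1+ C57BL/6 (B6) mice. They were given C57BL/6J and semi-allogeneic B6D2F1 marrow in equal parts. Both groups also received the same kind of Treg, which were WT, came from B6 mice whose Thy1.1 reporter marks Foxp3-expressing cells, and had been expanded ex vivo. The expansion used beads against CD3 and CD28 with IL-2 (500 IU/mL) and TGFβ1 (0.1 ng/mL) for 3 days, followed by 5 to 7 days of rest. The Tconv were naive and came either from mice lacking HP1α in all tissues, obtained from a floxed Hp1a allele and CMV-cre on a mixed 129/Sv and C57BL/6 background, or from Hp1a+/+ littermates, with mice of 6 to 12 weeks of age used in the study. The sequenced Treg thus carried no deletion themselves, and the comparison asks whether their receptor transcripts differed between hosts given Tconv of either genotype. The sort kept CD4+ Thy1.1+ cells that were H-2Kb+, H-2Kd-, CD45.2+ and CD45.1-. Whether a library was made from 1 mouse or from a pool is not given in the sources used here. The p-values thus set group differences against the spread between these libraries, which need not be the spread between mice.

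T cell activation needs a signal through CD28, which binds CD80 and CD86 on antigen-presenting cells. CTLA-4 binds the same ligands more tightly and is used by Treg to strip or block them, while ICOS is a related costimulatory receptor for ICOS ligand. PD-1 and BTLA carry inhibitory motifs in their tails and bind PD-L1 or PD-L2 and HVEM, respectively. TIGIT, CD96 and CD226 form a second circuit around CD155, in which CD226 activates and TIGIT inhibits. LAG-3 binds MHC class II and other ligands, and TIM-3, encoded by Havcr2, binds several ligands including galectin-9 and HMGB1. In Treg, CTLA-4 and ICOS are typically abundant, and Ctla4 is a target of Foxp3.

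Cd28, Ctla4 and Icos lie side by side in 1 cluster on chromosome 1, and the sequences just before their start sites are shown because all 3 genes had lower mean levels with HP1α KO Tconv. Each is a window of 250 bases of the GRCm39 genome that ends at the base before the start of the gene's canonical transcript and holds no annotated exon. Capitals mark short motifs searched on both strands, and no match overlapped another.
Cd28, chr1:60785267-60785516, plus strand: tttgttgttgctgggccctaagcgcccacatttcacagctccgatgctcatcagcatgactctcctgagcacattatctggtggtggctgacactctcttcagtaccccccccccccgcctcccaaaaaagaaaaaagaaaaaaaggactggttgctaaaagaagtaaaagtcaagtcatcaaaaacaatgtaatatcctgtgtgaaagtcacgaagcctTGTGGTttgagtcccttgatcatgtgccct
Ctla4, chr1:60947934-60948183, plus strand: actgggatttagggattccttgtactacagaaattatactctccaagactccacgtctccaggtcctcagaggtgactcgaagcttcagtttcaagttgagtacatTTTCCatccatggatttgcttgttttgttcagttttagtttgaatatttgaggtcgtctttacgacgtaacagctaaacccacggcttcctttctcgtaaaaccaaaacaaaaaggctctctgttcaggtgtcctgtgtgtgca
Icos, chr1:61016836-61017085, plus strand: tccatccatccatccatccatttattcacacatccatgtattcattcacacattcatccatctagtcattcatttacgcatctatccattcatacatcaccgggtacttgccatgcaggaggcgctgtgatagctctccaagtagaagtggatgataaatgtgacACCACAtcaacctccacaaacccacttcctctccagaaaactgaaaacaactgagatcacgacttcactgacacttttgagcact
The capitals in the Cd28 and Icos windows are the Runx core TGTGGT, beginning 30 and 85 bases before the start and read on the other strand in Icos, a motif that 12.6% of 16935 protein-coding promoters of the same length held. Those in the Ctla4 window are the NFAT core GGAAA on the other strand, 144 bases before the start, which 57.2% of promoters held. The Cd28 and Ctla4 windows lie within the annotated genes, since other transcripts of both start farther upstream.

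For Lag3, Cd96 and Tigit the same kind of window is given, because Lag3 and Cd96 had the lowest adjusted p-values of the receptors with DESeq2 and edgeR respectively, and Tigit and Cd96 bind the same ligand and differed in opposite directions. The Lag3 window was cut to the 153 bases that lie before any annotated exon. This leaves out the 97 bases nearest the start of its canonical transcript, in which 1 NFAT core lay 43 bases before that start.
Lag3, chr6:124888766-124888918, minus strand: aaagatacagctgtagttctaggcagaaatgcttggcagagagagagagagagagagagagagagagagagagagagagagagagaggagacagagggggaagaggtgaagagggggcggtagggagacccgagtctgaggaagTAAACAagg
Cd96, chr16:45940615-45940864, minus strand: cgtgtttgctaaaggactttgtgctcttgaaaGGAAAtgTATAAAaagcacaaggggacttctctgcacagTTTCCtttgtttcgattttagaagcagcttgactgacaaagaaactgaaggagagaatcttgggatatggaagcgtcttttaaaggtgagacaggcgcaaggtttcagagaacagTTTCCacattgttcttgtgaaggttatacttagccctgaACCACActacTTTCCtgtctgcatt
Tigit, chr16:43484510-43484759, minus strand: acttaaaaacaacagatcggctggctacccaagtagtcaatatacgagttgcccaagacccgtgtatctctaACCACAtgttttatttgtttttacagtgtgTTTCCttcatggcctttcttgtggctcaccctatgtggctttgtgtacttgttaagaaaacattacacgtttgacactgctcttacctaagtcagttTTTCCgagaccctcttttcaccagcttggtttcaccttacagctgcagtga
The Lag3 stretch held the forkhead core TAAACA near its end, beginning 106 bases before the start of the canonical transcript. Of the full windows of 250 bases, which are longer than the Lag3 stretch, 9.98% held it. Cd96 held 4 copies of the NFAT core, 218, 179, 64 and 15 bases before the start, with 1 Runx core at 25 and a TATA box (TATAAA, 8.8% of promoters) at 211. Tigit held 2 copies of the NFAT core at 148 and 51 and a Runx core at 178. Matches on the other strand appear as TTTCC and ACCACA in these windows. An AP-1 motif (TGANTCA, 5.12% of promoters) and the CRE core TGACGT (7.25%) were also searched, and these letters are in none of the 6 windows shown. Such matches describe letters in a window and do not show binding.

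The libraries held 87421755 to 119078882 counts, and the receptors drew from 1589 counts (Havcr2) to 130322 counts (Ctla4) per library, so that Poisson counting error was at most 2.51% of a value. All 6 Treg markers examined were detected in every library, and Foxp3, the lineage factor of Treg, was at 210 ± 10.9 CPM in the WT Tconv group and 211 ± 51.2 CPM in the HP1α KO Tconv group (SD, n = 3 each). The lowest Foxp3 level, 154 CPM, was in replicate 2 of the HP1α KO Tconv group, which also had the lowest Il2ra (121 CPM), Cd3e (147 CPM) and Cd4 (688 CPM). Ikzf2 went the other way, at 1822 CPM there and at 1612 and 1469 CPM in replicates 1 and 3 of that group. The summed Treg markers were at 3606 CPM in replicate 2 and at 3474 and 3408 CPM in replicates 1 and 3. Replicate 3 of the WT Tconv group stood apart in RNA of other cells. Its 6 red cell markers summed to 5995 CPM where the other 5 libraries held 388 to 726 CPM, its 7 neutrophil markers to 1541 CPM against 36.4 to 197 CPM, and its 5 macrophage or monocyte markers to 177 CPM against 12.5 to 46.8 CPM, with every gene of these lists above 0 in every library. Markers of B cells summed to 14.2 to 24.4 CPM and those of CD8 T cells to 5.83 to 8.85 CPM over the 6 libraries. Plasma cell markers summed to 157 to 183 CPM in the WT Tconv group and 128 to 158 CPM in the HP1α KO Tconv group, dendritic cell markers to 12.2 to 23.3 and 8.52 to 16.1 CPM, and NK cell markers to 8.23 to 14.3 and 8.77 to 9.29 CPM, with 3 of 4, 3 of 5 and 3 of 4 genes of these lists above 0 in every library. All 3 sums were highest in WT Tconv replicate 3, and the plasma and dendritic cell sums were lowest in HP1α KO Tconv replicate 3, the lowest library for Cd28, Ctla4, Tigit, Lag3 and Havcr2. The part of such RNA in the receptor results was not tested. WT Tconv replicate 3 was the lowest library for Icos, Pdcd1, Btla, Cd96 and Cd226. For each receptor, the fold change without its lowest library is given beside it. In bulk RNA, fewer cells of a type and less RNA per cell cannot be told apart.

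Levels are CPM, counts scaled to a library total of 1000000, after adjusting the totals by TMM, a method that balances composition between libraries. Per kilobase of exon, Ctla4 had the highest level of the 10 receptors, 469 CPM per kb on average with libraries from 342 to 579, which is above 99.7% of genes tested. Icos followed at 174 CPM per kb (156 to 214), and its range met neither that of Ctla4 nor that of the next gene. Tigit (69.6), Cd96 (60.7), Cd28 (58.6) and Pdcd1 (51.7 CPM per kb) formed a middle group in which each gene's range over the 6 libraries overlapped that of the next. Btla (27.1), Lag3 (25.0) and Cd226 (20.8 CPM per kb) formed a lower group with overlapping ranges, clear of Pdcd1 above. Havcr2 was lowest at 4.43 CPM per kb (3.69 to 4.92), a level above 61.8% of genes tested.

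**Figure D1:**
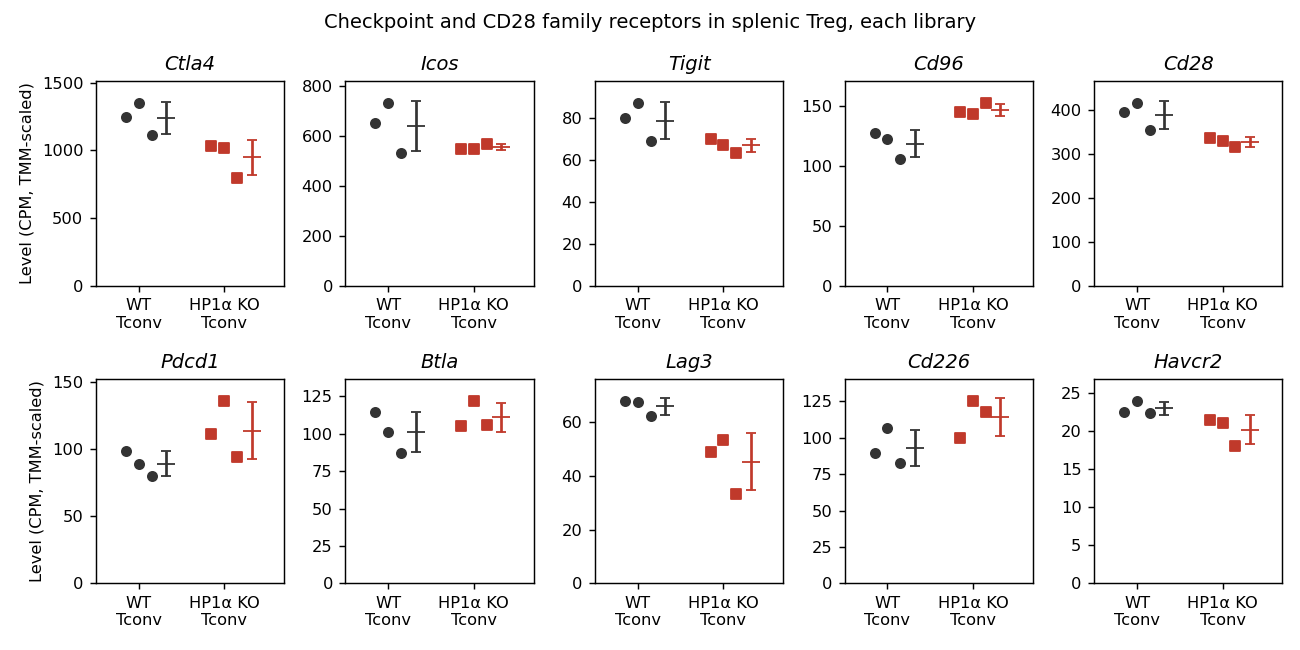
Levels of the 10 receptors in each library, in CPM after TMM scaling (vertical axes, each starting at 0), ordered by level per kilobase. Points are libraries in replicate order, with the mean and SD of each group beside them, and the groups do not overlap for Ctla4, Cd96, Cd28, Lag3 and Havcr2.

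With HP1α KO Tconv around them, Treg had lower mean levels of 6 receptors (Cd28, Icos, Ctla4, Tigit, Lag3 and Havcr2) and higher mean levels of 4 (Pdcd1, Btla, Cd96 and Cd226). The changes were modest, from 31.5% lower for Lag3 to 1.28-fold higher for Pdcd1. In the quasi-likelihood test of edgeR, 0 of the 10 had a Benjamini-Hochberg adjusted p under 0.05, as did 0 of all 18321 genes (0%). At an unadjusted p under 0.05 the test gave 7 of the 10. Of these, 4 were lower (Cd28, Ctla4, Tigit and Lag3), where 7.52% of all genes were lower at that threshold, and 3 were higher (Pdcd1, Cd96 and Cd226), where 6.98% of all genes were. The 7 became 3 without WT Tconv replicate 1 or without WT Tconv replicate 2, and 4 without HP1α KO Tconv replicate 2. Over all genes, 2656 at that threshold became 2011, 2069 and 3087 in these fits, respectively. By direction, the 4 lower receptors became 1 without WT Tconv replicate 1 or 2, where 1377 lower genes became 1031 and 976. The 3 higher receptors became 1 (Cd96) without WT Tconv replicate 3 or without HP1α KO Tconv replicate 2. There, 1279 higher genes became 1031 and 1411. These fits tested 18678 to 18925 genes, against 18321 in the main fit. DESeq2, the tool used in the study's own methods, placed 3 of the 10 under an adjusted p of 0.05, Ctla4 and Lag3 as lower (3.03% of the 12097 genes it adjusted were) and Cd96 as higher (1.31% were). None of the 10 had an absolute log2 fold change over 1, which those methods also required. Groups did not overlap for 5 receptors, lower for Cd28, Ctla4, Lag3 and Havcr2 (11.6% of all genes) and higher for Cd96 (11.5%). The median log2 fold change was -0.19 over the receptors and -0.01 over all genes, and the median absolute log2 fold change was 0.27 and 0.17, respectively. Without WT Tconv replicate 2 the receptor median was -0.11. Each receptor kept its direction in all 22 alternative fits.

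**Figure D2:**
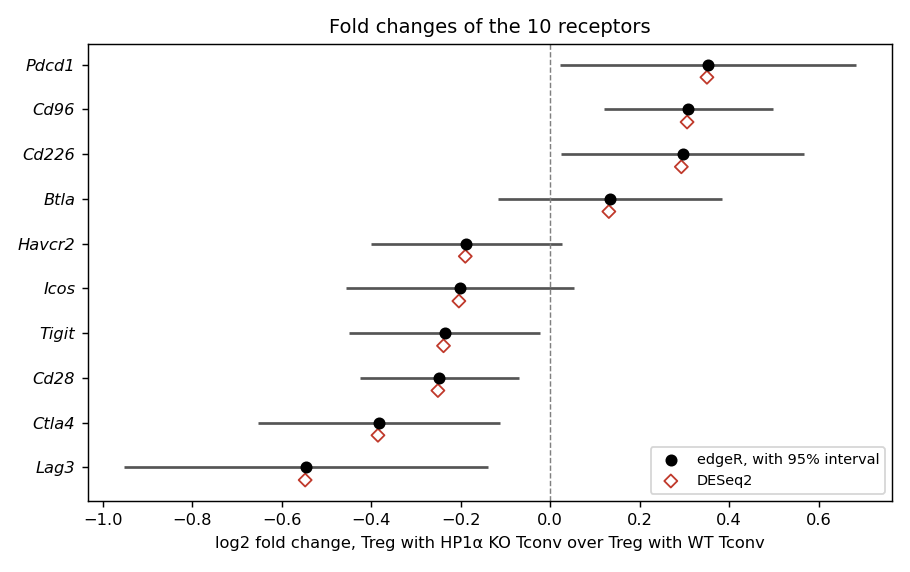
Log2 fold changes of the 10 receptors (horizontal axis), the HP1α KO Tconv group over the WT Tconv group. Black points and lines are edgeR estimates with 95% intervals, and open diamonds are DESeq2 estimates. The intervals of Havcr2, Icos and Btla include 0.

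Cd28, the primary costimulatory receptor (ENSMUSG00000026012, GRCm39 chr1:60755959-60812518, plus strand), was at 395, 417 and 355 CPM in replicates 1 to 3 with WT Tconv and at 337, 329 and 316 CPM in replicates 1 to 3 with HP1α KO Tconv. Every library of the HP1α KO Tconv group was below every library of the other group, and the spread was smaller there. Means were 389 ± 31.3 and 328 ± 10.6 CPM (SD, n = 3 each), 15.8% lower, and the log2 fold change was -0.25 (standard error 0.0775, 95% interval -0.43 to -0.07). Its adjusted p was 0.236 in edgeR and 0.0948 in DESeq2. Without HP1α KO Tconv replicate 3, its lowest library, the edgeR log2 fold change was -0.22.

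Ctla4 (ENSMUSG00000026011, chr1:60926159-60954991, plus strand), the inhibitory receptor for the same ligands, was at 1246, 1349 and 1112 CPM with WT Tconv and at 1028, 1018 and 798 CPM with HP1α KO Tconv. The groups did not overlap, and replicate 3 of the HP1α KO Tconv group was clearly the lowest. Means were 1236 ± 119 and 948 ± 130 CPM (SD, n = 3 each), 23.3% lower, with a log2 fold change of -0.38 (standard error 0.118, 95% interval -0.65 to -0.11). Its adjusted p was 0.232 in edgeR and 0.0414 in DESeq2. The DESeq2 call was sensitive to the set of libraries and held in 1 of the 6 fits that left out a library, with adjusted p from 0.0118 to 0.256. That fit, without HP1α KO Tconv replicate 2, gave 1413 DESeq2 calls over all genes, against 526 with all libraries. The other fits that left out a library gave 179 to 689. Without replicate 3 of the HP1α KO Tconv group the DESeq2 log2 fold change of Ctla4 was -0.27.

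Icos (ENSMUSG00000026009, chr1:61017086-61039479, plus strand), which supports the maintenance of effector Treg, was at 651, 732 and 533 CPM with WT Tconv and at 549, 548 and 569.7 CPM with HP1α KO Tconv. The groups overlapped, because the lowest library of all was WT Tconv replicate 3. Means were 639 and 556 CPM with coefficients of variation of 15.7% and 2.20% over 3 libraries each, with a log2 fold change of -0.20 (95% interval -0.46 to 0.05) and an edgeR adjusted p of 0.455. The edgeR log2 fold change was -0.32 without WT Tconv replicate 3, its lowest library, and -0.08 without WT Tconv replicate 2, its highest. Within the cluster, Ctla4 and Icos are 62095 bases apart, and the nearest tested genes beside the cluster genes are given as values. Gm11579, a long noncoding RNA gene 1925 bases after Cd28, had a log2 fold change of -0.16, Eif4a-ps4 before Cd28 one of 0.06, and Pard3b after Icos one of -0.04. Gm38137, 5262 bases before Ctla4, had at most 60 counts in a library and a log2 fold change of -0.53 with a 95% interval from -1.51 to 0.45.

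Pdcd1 (ENSMUSG00000026285, chr1:93966027-93980312, minus strand), which encodes PD-1, was at 98.8, 88.7 and 80.3 CPM with WT Tconv and at 111, 136 and 94.6 CPM with HP1α KO Tconv. With all libraries it had the largest upward fold change of the receptors. The groups overlapped, since replicate 3 with HP1α KO Tconv was below replicate 1 with WT Tconv. Means were 89.3 ± 9.28 and 114 ± 21.0 CPM (SD, n = 3 each), a fold of 1.28 (95% interval 1.02 to 1.61), with adjusted p of 0.319 in edgeR and 0.125 in DESeq2. The estimate depended on replicate 2 of the HP1α KO Tconv group, the highest library, without which the edgeR log2 fold change was 0.20 instead of 0.35. That was below Cd96 (0.33) and Cd226 (0.22) in the same fit. Without WT Tconv replicate 3 the Pdcd1 value was 0.28.

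Btla (ENSMUSG00000052013, chr16:45044475-45078033, plus strand), the inhibitory receptor for HVEM, was at 115, 101 and 87.3 CPM with WT Tconv and at 105, 122 and 106 CPM with HP1α KO Tconv. The libraries of both groups were interleaved. The log2 fold change was 0.13 (95% interval -0.12 to 0.38) with an edgeR adjusted p of 0.608, and it was 0.04 without WT Tconv replicate 3, 0.25 without WT Tconv replicate 1 and 0.06 without HP1α KO Tconv replicate 2.

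Among the receptors for CD155, the inhibitory Tigit was lower and the activating Cd226 and the partner Cd96 were higher with HP1α KO Tconv. Tigit (ENSMUSG00000071552, chr16:43469100-43484509, minus strand) was at 80.2, 87.3 and 69.3 CPM with WT Tconv and at 70.2, 67.3 and 63.6 CPM with HP1α KO Tconv. The groups overlapped through WT Tconv replicate 3 alone, which was below the highest library of the other group. Means were 78.9 ± 9.06 and 67.0 ± 3.28 CPM (SD, n = 3 each), 15.1% lower, with a log2 fold change of -0.24 (95% interval -0.45 to -0.02) and adjusted p of 0.305 in edgeR and 0.206 in DESeq2. Without WT Tconv replicate 2, its highest library, the edgeR log2 fold change was -0.14, and it was -0.20 without HP1α KO Tconv replicate 3, its lowest. The unadjusted p was under 0.05 in 1 of the 6 edgeR fits that left out a library.

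Cd96 (ENSMUSG00000022657, chr16:45856020-45940614, minus strand), an adhesion receptor that competes for CD155, was at 127.5, 122 and 106 CPM with WT Tconv and at 145, 143 and 152 CPM with HP1α KO Tconv. All libraries of the HP1α KO Tconv group were above all others. Means were 118 ± 11.4 and 147 ± 5.01 CPM (SD, n = 3 each), a fold of 1.24 (95% interval 1.09 to 1.41), with a log2 fold change of 0.31 and a standard error of 0.0824. Adjusted p was 0.209 in edgeR, the lowest of the 10 receptors, and 0.0492 in DESeq2. DESeq2 placed it under 0.05 in 2 of the 6 fits that left out a library, with adjusted p from 0.0150 to 0.168. These were the fits without WT Tconv replicate 1 and without HP1α KO Tconv replicate 2, with 317 and 1413 DESeq2 calls over all genes. Without WT Tconv replicate 3, the lowest library for Cd96, the edgeR log2 fold change was 0.23.

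Cd226 (ENSMUSG00000034028, chr18:89195087-89290353, plus strand), the activating receptor, was at 89.3, 106.9 and 82.9 CPM with WT Tconv and at 99.8, 125.5 and 117 CPM with HP1α KO Tconv. The groups overlapped between WT Tconv replicate 2 and HP1α KO Tconv replicate 1. Means were 93.0 ± 12.4 and 114 ± 13.1 CPM (SD, n = 3 each), a fold of 1.23 (95% interval 1.02 to 1.48), with adjusted p of 0.311 in edgeR and 0.163 in DESeq2. Without WT Tconv replicate 3 the log2 fold change was 0.22 instead of 0.30. Cd226 shares 79 exonic bases (1.59% of its exons) with Dok6 on the other strand, and the other 9 receptors share no exonic base with another annotated gene.

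Lag3 (ENSMUSG00000030124, chr6:124881320-124888765, minus strand), a CD4-related inhibitory receptor for MHC class II, was at 67.9, 67.4 and 62.2 CPM with WT Tconv and at 48.8, 53.4 and 33.2 CPM with HP1α KO Tconv. Here the WT Tconv libraries were close together and all above the others, whose lowest value was again in replicate 3. Means were 65.8 ± 3.14 and 45.1 ± 10.6 CPM (SD, n = 3 each), 31.5% lower. With all 6 libraries this was the largest relative difference among the receptors, with a log2 fold change of -0.55 (standard error 0.170, 95% interval -0.95 to -0.14). Adjusted p was 0.246 in edgeR and 0.0193 in DESeq2. The DESeq2 call held in 2 of the 6 fits that left out a library, with adjusted p from 0.000904 to 0.180. These were the fits without replicate 2 or 3 of the HP1α KO Tconv group, with 1413 and 367 DESeq2 calls over all genes. Without replicate 3 of that group the edgeR log2 fold change of Lag3 was -0.37. Its neighbor Cd4, 6562 bases away and related to it in sequence, had a log2 fold change of -0.01, and Ptms, 1256 bases away on the other side, one of -0.20 with an edgeR adjusted p of 0.396.

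Havcr2 (ENSMUSG00000020399, chr11:46345673-46374149, plus strand), which encodes TIM-3, was at 22.5, 24.0 and 22.4 CPM with WT Tconv and at 21.5, 21.1 and 18.0 CPM with HP1α KO Tconv. The groups did not overlap but lay close to each other apart from replicate 3 with HP1α KO Tconv. Means were 23.0 ± 0.888 and 20.2 ± 1.91 CPM (SD, n = 3 each), with a log2 fold change of -0.19 (95% interval -0.40 to 0.03) and adjusted p of 0.404 in edgeR and 0.379 in DESeq2. Without replicate 3 with HP1α KO Tconv the edgeR log2 fold change was -0.11.

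The libraries did not shift all receptors together. WT Tconv replicate 3 was the lowest library for Icos, Pdcd1, Btla, Cd96 and Cd226, whereas HP1α KO Tconv replicate 3 was the lowest for Cd28, Ctla4, Tigit, Lag3 and Havcr2 and the highest for Cd96. WT Tconv replicate 2 was the highest for Cd28, Icos, Ctla4, Tigit and Havcr2, and HP1α KO Tconv replicate 2 was the highest for Pdcd1, Btla and Cd226. The widest span over the 6 libraries was in Lag3, at 2.05-fold from lowest to highest, and the narrowest in Cd28, at 1.32-fold.

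**Figure D3:**
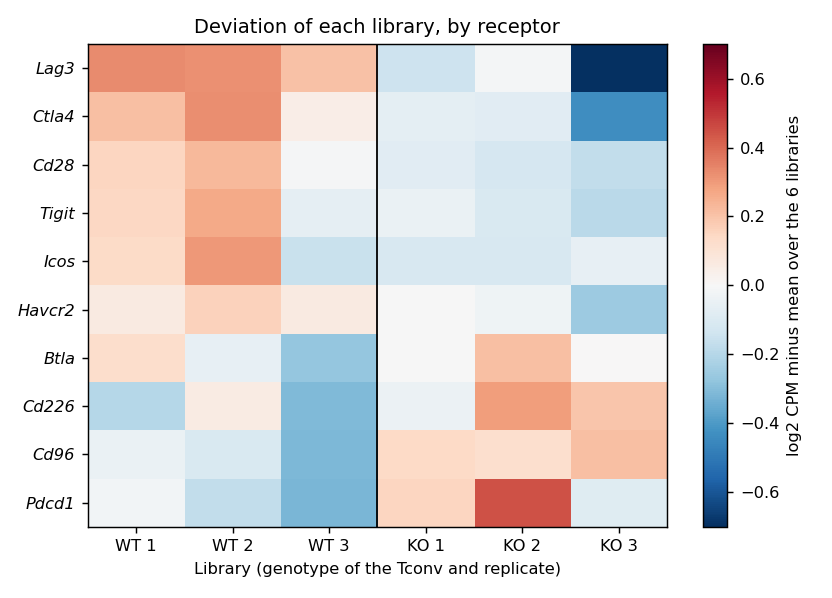
Deviation of each library (columns) from the receptor's own mean over the 6 libraries (rows), in log2 CPM, with red above and blue below the mean. The deepest blue is Lag3 in HP1α KO Tconv replicate 3 at -0.70, and the deepest red is Pdcd1 in HP1α KO Tconv replicate 2 at 0.44.

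Ratios of counts within a library, which need no scaling between libraries, compared receptors that share ligands or a locus. The Ctla4 to Cd28 ratio was 3.15, 3.24 and 3.13 with WT Tconv and 3.05, 3.09 and 2.52 with HP1α KO Tconv, so that the groups did not overlap but were close except for replicate 3 with HP1α KO Tconv. On the log2 scale it differed by -0.14, with p = 0.1 in a two-sided exact permutation test, the smallest p that 3 libraries against 3 allow, and 0.2 after Benjamini-Hochberg adjustment over 4 ratios. Without that replicate the difference was -0.05.

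The Tigit to Cd226 ratio, inhibitory over activating, was 0.898, 0.817 and 0.836 with WT Tconv and 0.703, 0.536 and 0.542 with HP1α KO Tconv. All libraries of the HP1α KO Tconv group were below all others. In log2 the means were -0.24 ± 0.0706 and -0.76 ± 0.222 (SD, n = 3 each), a difference of -0.53 with an exact permutation p of 0.1, again the smallest allowed, and an adjusted p of 0.2. It remained between -0.66 and -0.46 when any library was left out. The Icos to Cd28 ratio differed by 0.06 in log2 (exact permutation p = 0.5, adjusted p = 0.667) and the Cd96 to Cd226 ratio by 0.02 (exact permutation p = 0.8, adjusted p = 0.8), with overlapping groups, and both changed sign when certain libraries were left out.

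**Figure D4:**
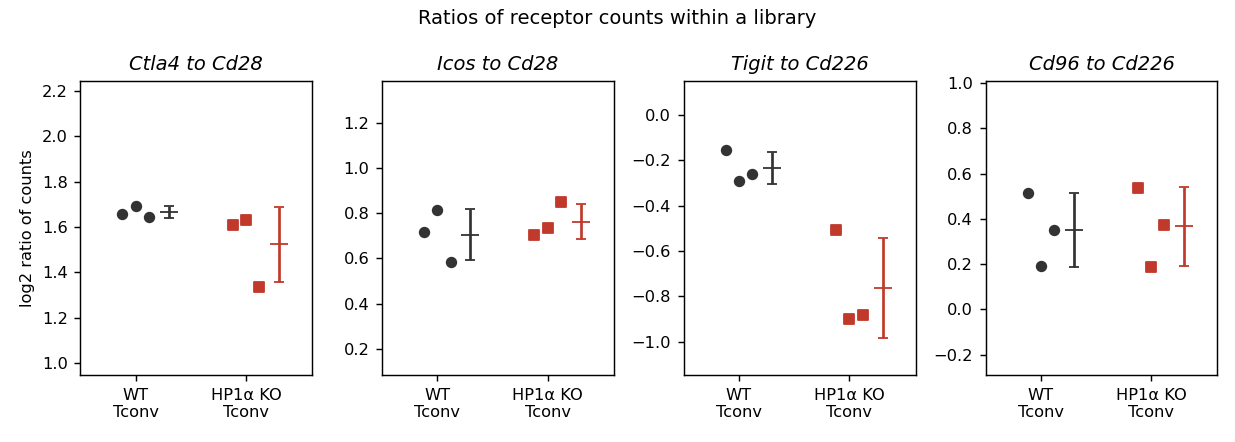
Log2 ratios of receptor counts within each library (vertical axes of equal span), with the mean and SD of each group. The Tigit to Cd226 ratio separates the groups by the widest gap, while the Icos to Cd28 and Cd96 to Cd226 ratios overlap.

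Genes that act with these receptors were described from 4 lists, none of which had a gene under an adjusted p of 0.05 in edgeR. Among ligands, 13 of 16 listed genes were tested, 7 lower and 6 higher, with a median log2 fold change of -0.03 that had no stable sign. It was 0.06 without WT Tconv replicate 3, with 5 lower and 8 higher, 0.04 without HP1α KO Tconv replicate 2, 0.02 without WT Tconv replicate 2 and 0.01 with unscaled library totals. At an unadjusted edgeR p under 0.05 there were 2, both lower, where 7.52% of all genes were. The number lower was 0 without WT Tconv replicate 1 or 2, or without HP1α KO Tconv replicate 1 or 3. Over all genes, 1377 were lower at that p in the main fit and 1031, 976, 1146 and 1000 in these fits, respectively. Upper quartile normalization or unscaled totals gave 0 ligands lower and 1 higher. Over all genes these scalings gave 1130 and 1034 lower, and 1420 and 1746 higher. The 2 ligands lower in the main fit were Pvr and Hmgb1. Pvr, which encodes CD155 itself, was at 44.0 ± 3.93 CPM with WT Tconv and 37.9 ± 2.16 CPM with HP1α KO Tconv (SD, n = 3 each). Hmgb1, a chromatin protein that TIM-3 can bind when released, had a log2 fold change of -0.16.

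Other immunoglobulin-family receptors of lymphocytes had higher means throughout, with 17 of 17 tested genes (21 listed) above 0, against 8890 of all 18321 genes, and a median log2 fold change of 0.17. An unadjusted edgeR p under 0.05 was reached by 6 of them, where 6.98% of all genes were higher at that threshold, and DESeq2 placed 0 under an adjusted p of 0.05. The lowest p-values belonged to Cd48, a ligand and partner of the SLAM family, at 243 ± 23.9 and 291 ± 12.02 CPM (SD, n = 3 each), Cd200r1, the inhibitory receptor for CD200, with a log2 fold change of 0.32, Cd101 with 0.27, and the SLAM receptor Slamf1 with 0.16. The size of this pattern depended on single libraries. Without WT Tconv replicate 3, which carried the RNA of other cells, 16 of 17 were above 0 and 1 reached that unadjusted p, with a median of 0.13. Without HP1α KO Tconv replicate 2, 14 of 17 were above 0 and 3 reached it, and without HP1α KO Tconv replicate 3 it was reached by 2. Over all genes, 1279 of 18321 were higher at that p in the main fit, and 1031 of 18678 without WT Tconv replicate 3. The number was 1411 of 18799 without HP1α KO Tconv replicate 2 and 960 of 18915 without HP1α KO Tconv replicate 3. The part of other cells' RNA in the pattern of these 17 receptors was not tested. This list was chosen with earlier results of these data known, so its counts are a description.

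Signalling and trafficking partners were split, with 12 of 25 lower and 13 higher and a median of 0.02, which was -0.02 without WT Tconv replicate 3 and -0.01 without HP1α KO Tconv replicate 1. At an unadjusted edgeR p under 0.05, 2 were lower and 4 higher, where 7.52% and 6.98% of all genes were, so that the number lower was near the background. Without WT Tconv replicate 1 the numbers were 0 and 3, where 1031 and 980 of all 18925 genes were. The 4 with the lowest p-values were Pik3cd, the PI3K catalytic subunit of lymphocytes (log2 fold change 0.26), Csk, the kinase that restrains Lck (0.22), Def6, a guanine nucleotide exchange factor with a known part in CTLA-4 trafficking (0.20), and Rab11a, a small GTPase of recycling endosomes (-0.23).

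Transcription factors known to act on the receptor genes were mostly lower, 14 of 20 against 6 higher, with a median of -0.15, where 9431 of all 18321 genes were lower. The median was -0.09 without WT Tconv replicate 2. An unadjusted edgeR p under 0.05 was reached by 5, all lower, where 7.52% of all genes were lower at that threshold. Nr4a3, an orphan nuclear receptor induced by T cell receptor signalling, was at 119, 116 and 143 CPM with WT Tconv and at 82.7, 74.2 and 54.1 CPM with HP1α KO Tconv. Its groups did not overlap, its log2 fold change was -0.84 (95% interval -1.24 to -0.44), and its adjusted p was 0.209 in edgeR and 3.18e-05 in DESeq2, the single DESeq2 call in the 4 lists. Its relative Nr4a2 had a log2 fold change of -0.38, Bcl6, the factor of follicular helper programs, -0.32, and Prdm1, which encodes Blimp-1, -0.21. The number lower at that unadjusted p was 1 without WT Tconv replicate 1 and 2 without WT Tconv replicate 2. It was 4 or 5 in the other edgeR fits that left out a library. Over all genes, 1377 were lower at that p in the main fit, 1031 without WT Tconv replicate 1 and 976 without WT Tconv replicate 2. The other edgeR fits that left out a library gave 1000 to 1676.

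**Figure D5:**
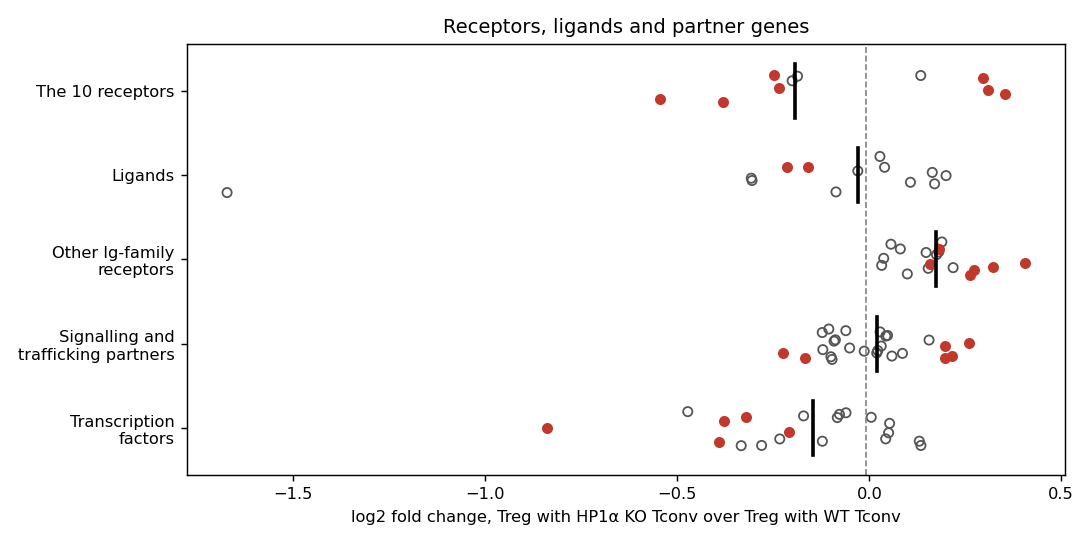
Log2 fold changes (horizontal axis) of the 10 receptors and of the tested genes of the 4 lists, the HP1α KO Tconv group over the WT Tconv group. Filled red points have an unadjusted edgeR p under 0.05, black bars are list medians, and the dashed line is the median of all genes tested at -0.01. All 17 other immunoglobulin-family receptors lie to the right of 0.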

How the data were processed

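Splenic Treg RNA was converted to stranded total RNA libraries. The authors trimmed reads, aligned them with STAR to GRCm39 and estimated expression per gene with Salmon in the nf-core pipeline, and the deposited values are estimated counts, not normalized and already whole numbers, so no rounding was done. Estimated counts divide ambiguous reads between genes by a model, and the strand setting of the counting is not given in the sources used here.

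Counts were tested with edgeR version 4.0.16 (glmQLFit with robust estimation, glmQLFTest, TMM, filterByExpr) in R version 4.3.3 on all 6 libraries with group as the sole term, and p-values were adjusted by Benjamini-Hochberg over all genes tested. Alternatives were DESeq2 version 1.42.0 (independent filtering at 0.05), limma-voom (limma version 3.58.1), other normalizations, count filters and dispersion settings, a replicate block, and fits that omitted each library in turn. Intervals are at 95%. Within-library ratios were tested with two-sided exact permutation tests over libraries. Cell type marker sums used CPM without TMM scaling. The receptors and lists were chosen with earlier results of these data known, so counts over them are descriptions. All receptors were named. From each list, the up to 4 genes with the smallest unadjusted edgeR p under 0.05 were named, with 5 identity genes (Foxp3, Il2ra, Ikzf2, Cd4 and Cd3e) and the neighbors of Cd28, Ctla4, Icos and Lag3. Exon lengths and positions were taken from the GENCODE annotation of the same assembly, which matched 28854 of 29199 identifiers. The edgeR and DESeq2 fits were tested on simulated data, and the outcome of that test is not given here. The receptor protein sequences and 3 listed genes (Clec4g, Cd276 and Vtcn1) were not analysed here.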

Additional observations from a re-analysis of the deposited data

How the results depend on the processing

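Directions of the 10 receptors held in all 22 alternative fits, and none reached an adjusted p under 0.05 in any edgeR or limma-voom fit. The number of genes with an adjusted p under 0.05, 0 by edgeR with 2656 at an unadjusted p under 0.05, was 1 with upper quartile normalization, 38 without the count filter, 526 with DESeq2, and 0 to 1413 when a library was left out, where 1413 was DESeq2 without HP1α KO Tconv replicate 2 and edgeR gave at most 2. For the receptors that number was 3 with DESeq2 and 0 to 4 when a library was left out. The number of receptors at an unadjusted p under 0.05 was 7, and it ranged from 3 to 7. In edgeR 3 receptors reached that p without WT Tconv replicate 1 or 2, beside 2011 and 2069 of all genes. Without HP1α KO Tconv replicate 2 edgeR gave 4 receptors, beside 3087 of all genes. The number whose groups did not overlap was 5 under the other scalings, and 5 to 7 with a library left out, where fewer libraries have to be separated and the share over all genes was not computed. When a library was left out, the Icos to Cd28 difference ranged from -0.0038 (without WT Tconv replicate 3) to 0.11, the Cd96 to Cd226 difference from -0.071 (without HP1α KO Tconv replicate 1) to 0.11, with -0.065 without WT Tconv replicate 2, and the cause was not tested. The difference in summed B cell markers was 0.316 CPM, and -0.159 CPM with TMM-scaled totals.

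The replicate numbers are shared by the groups in the labels. Deviations of same-numbered libraries correlated at -0.042, 0.182 and 0.117, and those of differently numbered libraries at -0.218 to 0.121. With 3 libraries per group these values cannot show whether the numbers pair the samples, and the main fit did not pair them. With the replicate number as a block, 1 gene had an adjusted p under 0.05, 2080 had an unadjusted p under 0.05, and the count of receptors at an unadjusted p under 0.05 was again 7. Under the block the number at that p was 1 among ligands, 3 among other immunoglobulin-family receptors, 4 among signalling and trafficking partners and 2 among transcription factors, against 2, 6, 6 and 5 without it. Depth limited the receptors little, since counting error was below the spread between libraries for each.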
